A study of Rattus norvegicus with 9 samples.

Results

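MHC class II molecules carry peptides from endosomes to the cell surface, where CD4+ T cells read them. The genes described here are the 8 rat class II presentation genes RT1-Da, RT1-Db1, RT1-Ba, RT1-Bb, RT1-DMa, RT1-DMb, Cd74 and Ciita, taken by symbol from 17145 rows in each of the 2 deposited tables. They were followed in the ileum of rats of the Otsuka Long-Evans Tokushima fatty strain, an obese and diabetic strain without a working cholecystokinin-1 receptor, 1 month after surgery. Roux-en-Y gastric bypass (RYGB), which leads food past most of the stomach and the duodenum, gave ileum labelled FDG decreased and ileum labelled FDG increased, and sham-operated rats gave the third group, with 3 labelled replicates each. FDG is read as the glucose tracer fluorodeoxyglucose, which the labels do not write out, and neither the age of the rats nor the cut that separates decreased from increased is stated. The series was made to look at what RYGB does to the small intestine. One table holds FDG-decreased beside FDG-increased libraries (the RYGB table) and the other FDG-increased beside sham libraries (the sham table). All samples are whole pieces of ileum, so fewer class II-bearing cells and less class II RNA per cell cannot be told apart. Whether replicates are separate animals is not stated, and the p-values below speak only of the spread among these libraries, which may be technical.

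Several libraries need naming before any result. The tables share a pair of FDG-increased libraries: replicates 1 and 2 of that group in the RYGB table are replicates 2 and 3 in the sham table, times 1.023 and 1.0204, with 99.985% and 99.941% of genes within 1% of those factors. They are called A and B below. FDG-increased library C (replicate 3) is in the RYGB table alone and library D (replicate 1) in the sham table alone, so there are 10 distinct libraries in 12 columns, and 4 FDG-increased libraries where the labels have 3. The sum of FPKM ran from 466177 to 865509 per column. Fabp6, the bile acid binding protein that marks ileum, stood at 22.6 FPKM in sham replicate 1, against 8375 and 11347 FPKM in sham replicates 2 and 3. Lct, the lactase of upper small intestine, stood at 253 FPKM in sham replicate 1, against 8.60 and 0.317 FPKM in sham replicates 2 and 3. Tests of the members against sham and the medians of cell type markers are therefore given with and without that library. Other genes and lists are given with it alone. FDG-decreased replicate 3 and library C also stand apart, and a paragraph of their own describes them.

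A class II molecule pairs an alpha and a beta chain. RT1-Da and RT1-Db1 encode the RT1-D pair, the rat counterpart of human HLA-DR, and RT1-Ba and RT1-Bb the RT1-B pair, the counterpart of HLA-DQ. Cd74 is the invariant chain, which fills the groove of new class II molecules and takes them to endosomes. There RT1-DM, made of RT1-DMa and RT1-DMb, swaps the last piece of Cd74 for peptide. Ciita is the coactivator that class II genes need for transcription, and interferon gamma induces it in many cells. In the gut, dendritic cells, macrophages, B cells and epithelial cells of the small intestine can carry class II.

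Ciita does not bind DNA itself: it is held at class II promoters by proteins on the X box (the RFX complex) and the Y box (NF-Y). The boxes lie at a nearly fixed distance. The promoter windows of 5 members are shown because these boxes are what the class II genes share with each other and what ties them to Ciita. The sequences are RefSeq promoters on GRCr8, 5′ to 3′ on the strand of the gene, with capitals for the X box core ACNGATG and the Y box core TGATTGG. The windows are chr20:4515316-4515390 (plus strand) for RT1-Da, chr20:4560218-4560291 (minus strand) for RT1-Db1, chr20:4576959-4577038 (plus strand) for RT1-Ba, chr20:4604155-4604228 (minus strand) for RT1-Bb and chr20:4712375-4712449 (minus strand) for RT1-DMa.
RT1-Da: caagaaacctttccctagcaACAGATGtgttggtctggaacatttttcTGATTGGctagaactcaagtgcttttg
RT1-Db1: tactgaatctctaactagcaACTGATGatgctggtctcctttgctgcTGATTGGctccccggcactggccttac
RT1-Ba: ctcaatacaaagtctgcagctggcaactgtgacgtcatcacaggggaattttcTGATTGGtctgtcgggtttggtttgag
RT1-Bb: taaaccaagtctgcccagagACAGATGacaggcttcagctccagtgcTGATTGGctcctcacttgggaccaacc
RT1-DMa: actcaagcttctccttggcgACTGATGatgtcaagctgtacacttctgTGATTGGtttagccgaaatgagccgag
From the start of the X core to the start of the Y core there are 27 bases in RT1-Db1 and RT1-Bb and 28 in RT1-Da and RT1-DMa. The Y core starts 51 bases before the gene start in RT1-Da, 82 in RT1-Db1, 45 in RT1-Ba, 63 in RT1-Bb and 66 in RT1-DMa. RT1-Ba has these letters for the Y core and not for the X core, and the promoter of Cd74 has neither. Both strands of 33469 promoters of 300 bases were searched, and 10.2% held the X core and 7.06% the Y core. An X core followed within 40 bases by a Y core on the strand of the gene stood in 10 of them (0.0299%). Of those 10, 6 are class II genes: RT1-Da, RT1-Db1, RT1-Bb, RT1-DMa, RT1-DOb and RT1-Db2. The distance from X core start to Y core start was 25 bases in RT1-DOb and 26 in RT1-Db2. The other 4 are Ehd4, G3bp2, Hsd17b7 and Tdo2. The 2 motifs do not overlap in any window shown, and a match describes letters only. RefSeq promoters for RT1-DMb and Ciita are not shown.

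In all 10 libraries Cd74 was the most abundant member per length, followed by RT1-Da. In library A Cd74 stood at 1847 FPKM and RT1-Da at 427 FPKM in the RYGB table. There Cd74 ranked 34 and RT1-Da 198 among all genes by FPKM, while Ciita ranked 7301. Cd74 per RT1-Da lay between 2.77 and 4.56 in every library. RT1-Da per RT1-Db1 lay between 3.00 and 5.63. The 2 chains of RT1-B were less even: RT1-Ba per RT1-Bb ran from 1.81 in FDG-decreased replicate 3 to 24.5 in library B. The RT1-D pair and Cd74 thus kept their proportions more closely than the RT1-B pair across these libraries. RT1-Db1 has a close relative, RT1-Db2, listed at 0 to 0.152 FPKM, and reads of such genes could have been split between them by the counting.

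**Figure D1:**
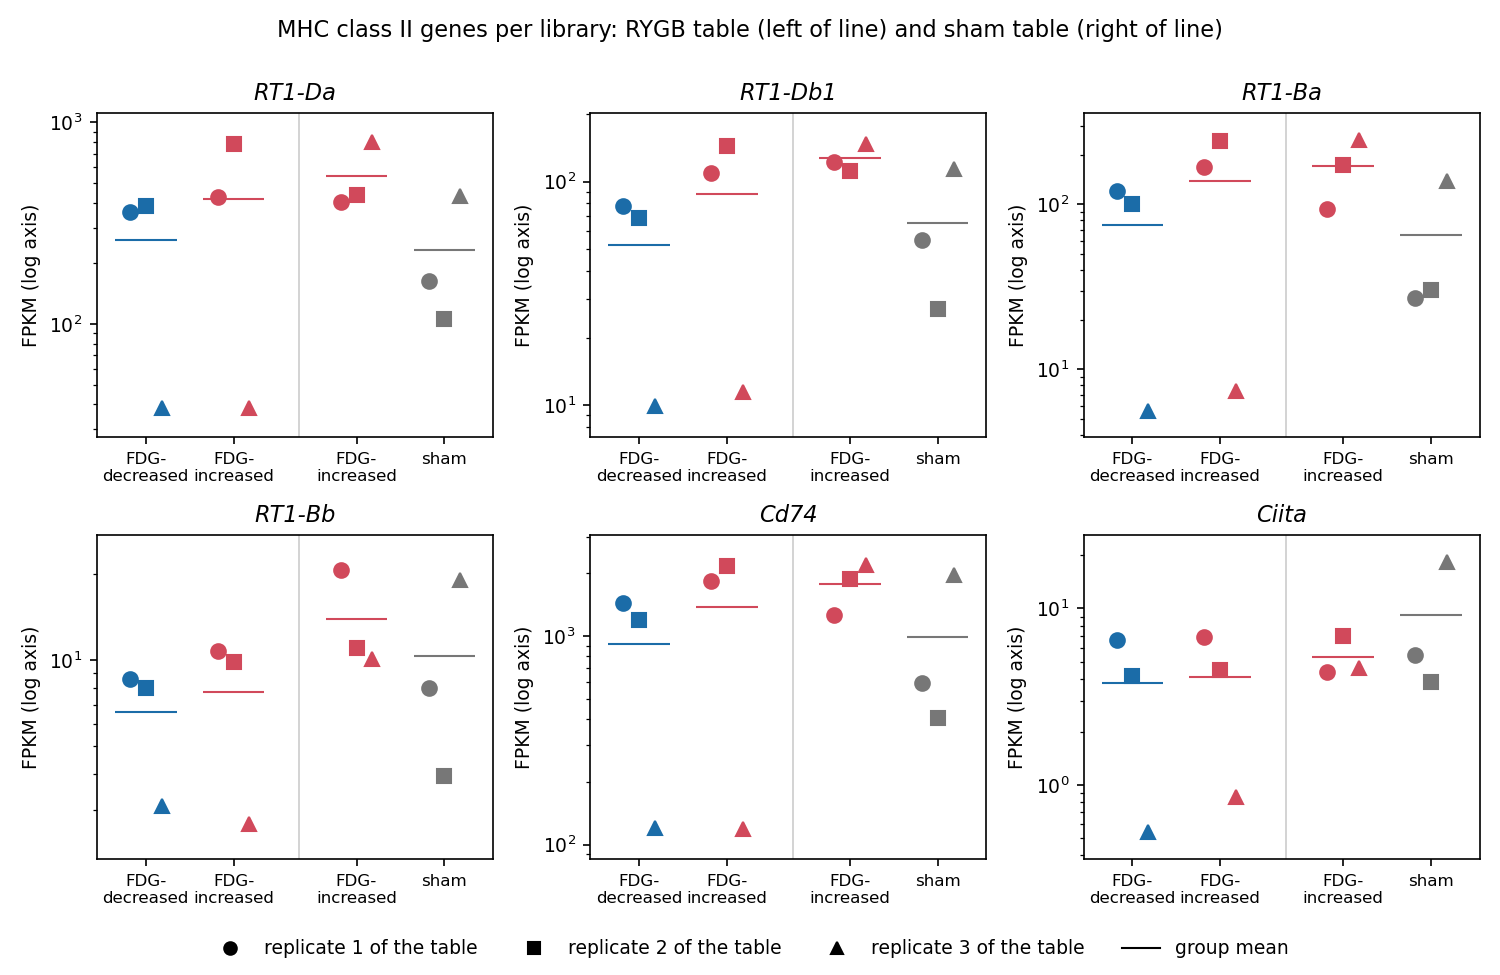
FPKM (log axis) of the 6 measurable class II genes in each library of the RYGB table (left of the line) and the sham table (right of the line), with the group mean as a bar. The triangles of both RYGB groups lie far below the other libraries left of the line, and the sham triangle lies above the other sham points.

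FDG-increased libraries D, A and B of the sham table held more class II chain RNA than 2 of the 3 sham libraries, and the third sham library overlapped them. FDG-increased library C, which is in the other table, was lower than all sham libraries in each chain and in Cd74 once multiplied by 1.0217, the mean factor of the shared libraries, with RT1-Da at 39.2 FPKM, RT1-Ba at 7.55 FPKM and Cd74 at 121 FPKM, and the test against sham does not hold it. RT1-Da, RT1-Db1, RT1-Ba, RT1-Bb and Cd74 averaged above sham, and Ciita averaged below it. No member passed the test over all genes: 0 of 6 measurable members were called by limma at an adjusted p of 0.05, where 4 of 10801 genes (0.037%) were. The median difference of these 6 members was 1.17 on the log2(FPKM + 1) scale, against 0.13 for all genes tested, and 5 of 6 were higher in FDG-increased ileum, as were 64.7% of all genes.

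The RT1-D alpha chain RT1-Da stood at 401, 436 and 797 FPKM in FDG-increased libraries D, A and B, against 164, 106 and 429 FPKM in sham replicates 1, 2 and 3. Sham replicate 3 lay among the FDG-increased libraries and the other sham libraries below them all. The group means were 545 ± 219 FPKM in FDG-increased ileum and 233 ± 172 FPKM in sham ileum (SD, n = 3 each), a log2 difference of 1.40 (SE 0.530) with a limma adjusted p of 0.605. Its partner RT1-Db1 stood at 122, 111 and 148 FPKM in FDG-increased libraries D, A and B, against 54.8, 26.9 and 114 FPKM in sham ileum. Again sham replicate 3 alone overlapped. The log2 difference was 1.17 (SE 0.490; limma adjusted p 0.626).

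The RT1-B alpha chain RT1-Ba had the largest difference of the members. It stood at 94.0, 173 and 247 FPKM in FDG-increased libraries D, A and B, against 27.0, 30.3 and 139 FPKM in sham replicates 1, 2 and 3. Here sham replicate 3 lay above library D. The means were 171 ± 76.7 FPKM in FDG-increased ileum and 65.5 ± 63.8 FPKM in sham ileum (SD, n = 3 each), a log2 difference of 1.69 (SE 0.634; limma adjusted p 0.605). RT1-Bb, the beta chain, stood at 20.6, 11.0 and 10.1 FPKM in libraries D, A and B, against 8.02, 3.96 and 19.0 FPKM in sham ileum. Library D, the lowest of its group for RT1-Ba, was the highest for RT1-Bb. The log2 difference of RT1-Bb was 0.56 (SE 0.489; limma adjusted p 0.815).

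Cd74 stood at 1256, 1889 and 2203 FPKM in FDG-increased libraries D, A and B, against 595, 403 and 1958 FPKM in sham replicates 1, 2 and 3. The means were 1783 ± 482 FPKM in FDG-increased ileum and 985 ± 848 FPKM in sham ileum (SD, n = 3 each). The log2 difference was 1.16 (SE 0.563; limma adjusted p 0.667), with sham replicate 3 above libraries D and A. Ciita, the activator, did not share that order. It stood at 4.38, 7.02 and 4.60 FPKM in libraries D, A and B, against 5.43, 3.81 and 18.3 FPKM in sham ileum, a log2 difference of -0.43 (SE 0.475; limma adjusted p 0.863). Its highest value of all 10 libraries was that of sham replicate 3. At an unadjusted p of 0.05 limma placed 3 of 6 members, RT1-Ba, RT1-Da and RT1-Db1, higher in FDG-increased ileum, as it did 6.15% of all genes. Without sham replicate 1 it placed 0 of 6 members higher, against 7.43% of all genes. Without sham replicate 3 it placed 5 of 6 higher, against 4.82%.

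The sham libraries divided the result. For 6 of 6 members sham replicate 3 was the highest sham library, as it was for 26% of all genes, and for 5 of 6, all but Ciita, the 3 FDG-increased libraries lay above sham replicates 1 and 2, as they did for 15.3%. The groups were free of overlap for 0 of 6 members, against 10.7% of all genes for which FDG-increased lay wholly above sham. Sham replicate 3 exceeded sham replicate 2 by 4.04-fold in RT1-Da, 4.59-fold in RT1-Ba, 4.86-fold in Cd74 and 4.79-fold in Ciita. Without sham replicate 3 the log2 differences were 2.43 for RT1-Ba, 1.96 for RT1-Da, 1.82 for Cd74, 1.69 for RT1-Db1 and 1.09 for RT1-Bb, and that of Ciita was 0.16. Of these 0 of 6 were called, where 0.0648% of genes were, and the lowest limma adjusted p was 0.259, for RT1-Ba. Without sham replicate 1, the library low in Fabp6, they were 1.27 for both RT1-Ba and RT1-Da, 1.17 for RT1-Db1, 0.97 for Cd74, 0.51 for RT1-Bb and -0.63 for Ciita, with limma adjusted p from 0.567 to 0.816 and 0 of 6 called, where 0.00926% of genes were. All sham libraries came from lane 7. The lane of library A is 7 by its number in the RYGB table and 4 by its number in the sham table, which the labels do not settle. The same doubt holds for library D, which is lane 7 only by its number in the sham table. A comparison of D with sham therefore need not lie within a lane. Against sham, library D alone, the FDG-increased column of that table labelled lane 7, gave log2 differences of 1.17 for RT1-Bb, 1.13 for RT1-Db1, 1.03 for RT1-Da, 0.93 for RT1-Ba, 0.69 for Cd74 and -0.64 for Ciita.

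**Figure D2:**
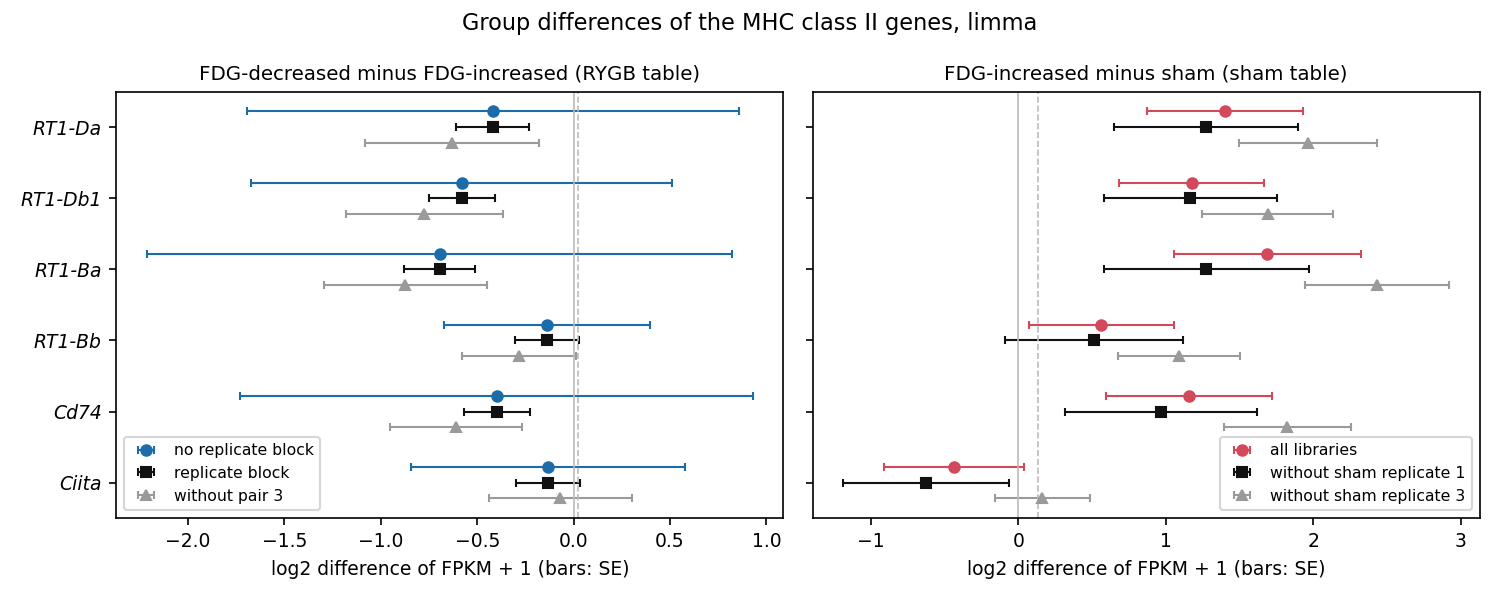
Log2 differences of FPKM + 1 with SE for the class II genes, FDG-decreased minus FDG-increased on the left and FDG-increased minus sham on the right, under 3 fits each; the dashed line is the median of all genes tested. On the left the replicate block leaves the points in place and shortens the bars; on the right Ciita crosses 0 without sham replicate 3.

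Set against Ciita in the same library, the class II genes separated the groups more cleanly than their levels did. Such a ratio does not depend on the scaling of a table. Cd74 held 269 FPKM per FPKM of Ciita in library A, 479 in B and 287 in D, against 109.6, 105.6 and 107.2 in sham replicates 1, 2 and 3. The sham libraries, which differed 4.86-fold in Cd74, thus differed 1.04-fold in this ratio, and 0.00929% of 10761 genes, Cd74 alone, had so small a spread relative to Ciita over sham. Library C, in the RYGB table, had a ratio of 139, also above sham. That ratio rests on Ciita at 0.853 FPKM, below 1 FPKM, and read depth is unknown. RT1-Da per Ciita was 91.6, 62.2 and 173 in libraries D, A and B, against 30.3, 27.9 and 23.5 in sham ileum. RT1-Ba per Ciita was 21.4, 24.6 and 53.8 in the same FDG-increased libraries, against 4.97, 7.95 and 7.62 in sham ileum. For 5 of 5 members the ratio to Ciita in the sham table was higher in every FDG-increased library than in every sham library, as it was for 6.56% of genes. The gap was narrow for RT1-Bb, whose lowest FDG-increased ratio was 1.06 times the highest sham ratio, and wide for RT1-Ba at 2.70 times. These ratios were taken up after the values had been seen and carry no test, and an exact permutation test of 3 against 3 cannot go below p = 0.10.

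**Figure D3:**
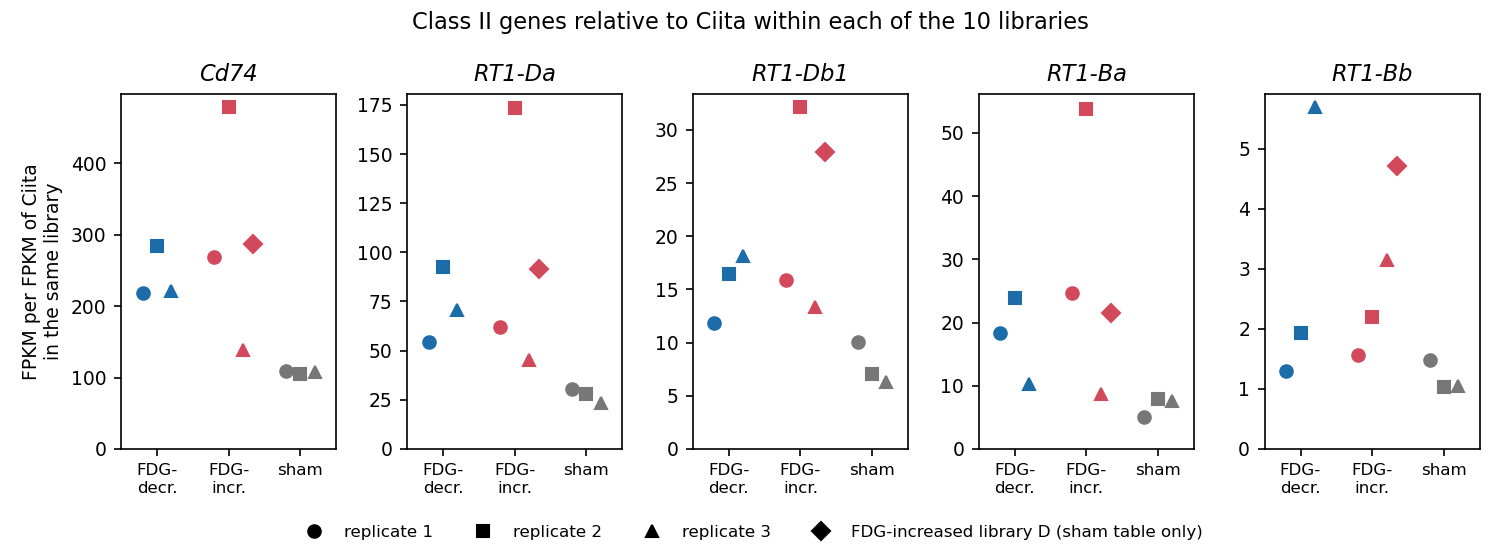
FPKM of each class II gene per FPKM of Ciita in the same library (linear axes), for FDG-decreased, FDG-increased and sham ileum. The 3 sham points of Cd74 lie together between 105.6 and 109.6, below every RYGB library.

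FDG-decreased ileum, set beside FDG-increased ileum within the RYGB operation, averaged lower in 6 of 6 members, and no member was called. That direction turned with single libraries: the members' median log2 difference was 0.60 without FDG-decreased replicate 3, and leaving out an FDG-increased library gave 0.08 for A, 0.15 for B and -1.70 for C. In the RYGB table, FDG-decreased ileum was higher for 55.2% of all 10739 genes tested. Without the replicate number in the model limma called 0 genes (0%), with 110 (1.02%) at an unadjusted p of 0.05, none of them members. With all libraries the members' median was -0.41, against 0.02 for all genes tested. The replicates within a group spread so widely that the SE reached 1.52 for RT1-Ba, whose difference was -0.70. Same-numbered libraries of the RYGB table deviated together, so pairs are described next.

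RT1-Ba stood at 121, 99.98 and 5.62 FPKM in FDG-decreased replicates 1, 2 and 3, against 169, 242 and 7.39 FPKM in FDG-increased libraries A, B and C. It was lower in FDG-decreased ileum in all 3 pairs, at 0.717, 0.413 and 0.761 of the FDG-increased value. With the replicate number as a block its difference of -0.70 had an SE of 0.182 and a limma adjusted p of 0.147. RT1-Db1 stood at 77.8, 68.5 and 9.88 FPKM in FDG-decreased ileum, against 109, 145 and 11.4 FPKM in libraries A, B and C. It too was lower in every pair, at 0.715, 0.473 and 0.865 of the FDG-increased value, with a blocked difference of -0.58 (SE 0.173; limma adjusted p 0.224).

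RT1-Da and Cd74 were lower in FDG-decreased ileum in pairs 1 and 2 and level in pair 3. RT1-Da stood at 359, 385 and 38.5 FPKM in FDG-decreased ileum, against 427, 781 and 38.4 FPKM in FDG-increased ileum. Cd74 stood at 1438, 1189 and 121 FPKM in FDG-decreased ileum, against 1847, 2159 and 118 FPKM in FDG-increased ileum. Their pair ratios were 0.842, 0.493 and 1.00 for RT1-Da and 0.779, 0.551 and 1.02 for Cd74. The blocked differences were -0.42 (SE 0.189; limma adjusted p 0.535) for RT1-Da and -0.40 (SE 0.171; limma adjusted p 0.490) for Cd74. RT1-Bb stood at 8.59, 8.03 and 3.10 FPKM in FDG-decreased ileum, against 10.8, 9.88 and 2.69 FPKM in FDG-increased ileum. Ciita stood at 6.60, 4.17 and 0.545 FPKM in FDG-decreased ileum, against 6.86, 4.50 and 0.853 FPKM in FDG-increased ileum. It was lower in FDG-decreased ileum in each pair, at 0.962, 0.926 and 0.639 of the FDG-increased value, with a blocked difference of -0.13 (SE 0.165).

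Over the 3 pairs, 3 of 6 members (RT1-Ba, RT1-Db1 and Ciita) were lower in FDG-decreased ileum each time, as were 12.7% of all genes, and 0 of 6 were higher each time, as were 17.2%. With the block 0 of 6 members and 122 of 10739 genes (1.14%) were called by limma, and 3 of 6 members were lower at an unadjusted p of 0.05, as were 4.7% of genes. By the numbers of the RYGB table pairs 1 and 2 each shared a lane, so the ratios of those pairs are within-lane values, subject for pair 1 to the doubt over library A. Without both libraries of pair 3, a setting chosen after the data were seen, the blocked fit rested on 2 pairs. It then called 345 genes. Of the members 3 of 6 were called lower in FDG-decreased ileum, where 2.1% of genes were: RT1-Ba at -0.87 (limma adjusted p 0.000233), RT1-Db1 at -0.77 (limma adjusted p 0.00232) and RT1-Da at -0.63 (limma adjusted p 0.0350). Cd74 was at -0.61 (limma adjusted p 0.0618) there. The pairing in that fit cannot be told apart from the lane.

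The third replicate of both RYGB groups was far below the others in class II RNA. Cd74 in FDG-decreased replicates 1 and 2 was 11.9 and 9.87 times that of replicate 3. In FDG-increased libraries A and B it was 15.6 and 18.2 times that of library C. RT1-Ba had the widest gap, 21.5- and 17.8-fold in FDG-decreased ileum and 22.8- and 32.8-fold in FDG-increased ileum. RT1-Bb had the narrowest, 2.77- and 2.59-fold in FDG-decreased ileum and 4.0- and 3.67-fold in FDG-increased ileum. Replicate 3 was lowest in both groups for 6 of 6 members, as it was for 35.4% of all genes. In 5 of 6 members, all but RT1-Bb, both replicate 3 libraries lay at least 3-fold below the other 4, as they did for 2.09% of genes.

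Other immune lists were also lower in those libraries, to different degrees. The median log2 difference of replicate 3 against replicates 1 and 2, averaged over both groups on the log2(FPKM + 1) scale, was -3.31 for the class II members and -0.27 for all genes. It was -1.70 for T cell genes, -1.69 for macrophage markers, -1.27 for dendritic cell markers and -1.22 for B cell markers. The T cell genes are the list of CD4 T cell partners of class II. Many of them, such as Cd3e and Lck, are shared with other T cells. Class I presentation genes had -1.02, interferon gamma input genes -0.68, class II promoter factors -0.34 and epithelial markers -0.43. Both replicate 3 libraries lay at least 3-fold below the rest in 8 of 11 T cell genes and 5 of 13 macrophage markers. They did so in 3 of 10 dendritic cell markers, 2 of 7 B cell markers and 0 of 11 epithelial markers, against 2.09% of all genes. Csf1r, the macrophage growth factor receptor, stood at 16.3, 17.3 and 3.03 FPKM in FDG-decreased ileum, against 22.9, 31.5 and 2.04 FPKM in FDG-increased ileum. Cd74 per Csf1r in replicate 3 was 39.8 in FDG-decreased and 58.0 in FDG-increased ileum, below the 68.5 to 88.4 of the other RYGB table libraries. In the sham table the ratio was 44.1 in library D and 45.3, 54.9 and 156.5 in sham replicates 1, 2 and 3. Library C lay within the range of those libraries, and FDG-decreased replicate 3 lay below it. Cd74 per Epcam, an epithelial surface protein, was 0.198 and 0.182 in the replicate 3 libraries and 0.907 to 1.33 in the other 4. Ileal position markers had a median of -2.36. Upper intestine markers had a median of -1.04, with Lct, Fabp1 and Slc5a1 lower and Gip and Gata4 higher. The part of cell makeup and position along the gut in these levels was not tested.

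**Figure D4:**
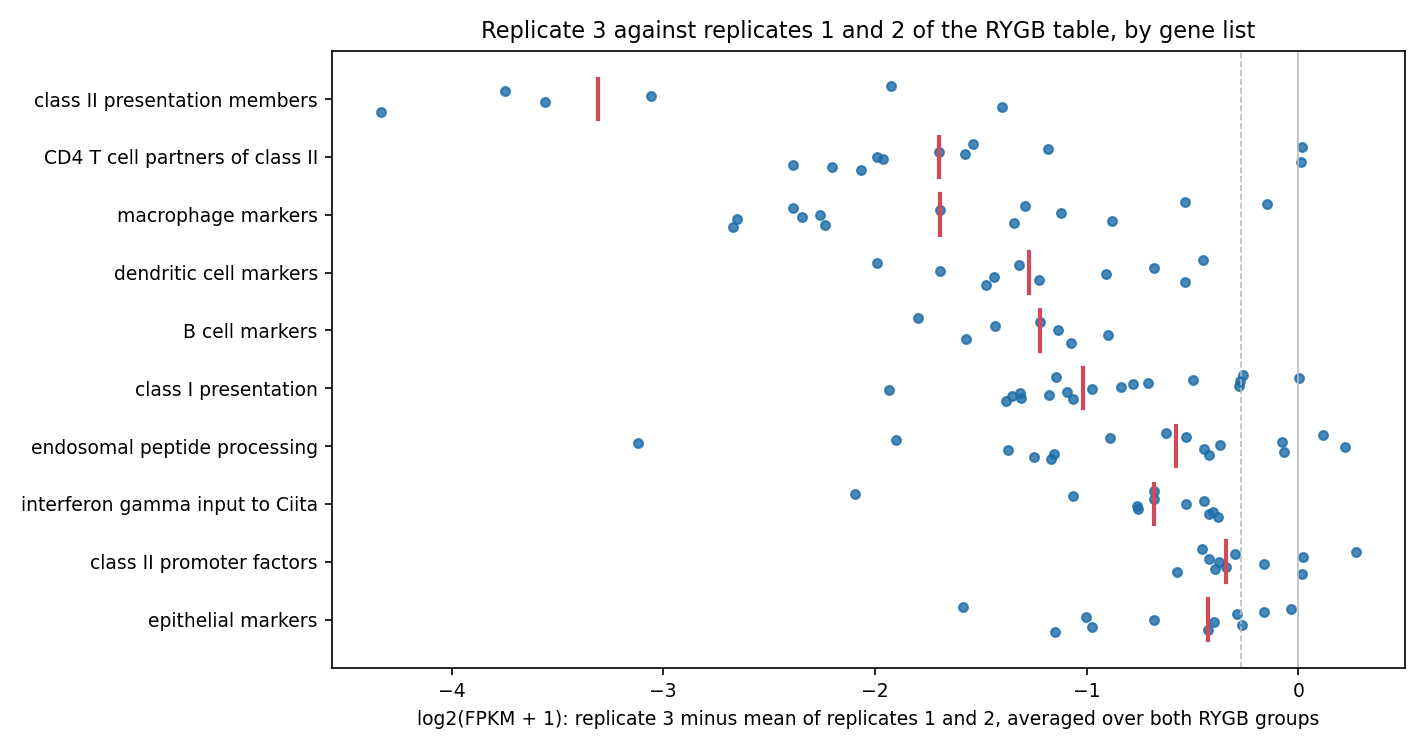
Log2(FPKM + 1) of replicate 3 minus the mean of replicates 1 and 2, averaged over FDG-decreased and FDG-increased ileum, for each measured gene of 10 lists; red bars are list medians and the dashed line is the median of all genes (-0.27). Of the 10 list medians that of the class II members lies furthest left, at -3.31.

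FDG-decreased ileum and sham ileum are in different tables, so their values are set side by side after the factor 1.0217 from the shared libraries, without a test. RT1-Da stood at 367, 393 and 39.3 FPKM in FDG-decreased replicates 1, 2 and 3, against 164, 106 and 429 FPKM in sham ileum. Cd74 stood at 1469, 1215 and 123 FPKM in FDG-decreased ileum, against 595, 403 and 1958 FPKM in sham ileum. The ranges overlapped in both genes, with the lowest library in the FDG-decreased group and the highest in the sham group. RT1-Ba stood at 124, 102 and 5.74 FPKM in FDG-decreased ileum, against 27.0, 30.3 and 139 FPKM in sham ileum. Ciita stood at 6.74, 4.26 and 0.557 FPKM in FDG-decreased ileum, against 5.43, 3.81 and 18.3 FPKM in sham ileum. Ratios to Ciita are given as values only, since the share of all genes that separate these groups in this way was not counted. Cd74 stood at 218, 285 and 221 FPKM per FPKM of Ciita in FDG-decreased ileum, against 109.6, 105.6 and 107.2 in sham ileum. The ratios of FDG-decreased replicate 3 rest on Ciita at 0.557 FPKM, below 1 FPKM, and read depth is unknown. RT1-Da per Ciita was 54.4, 92.3 and 70.7 in FDG-decreased ileum, also above the sham range of 23.5 to 30.3. RT1-Bb per Ciita was 1.30, 1.92 and 5.68 in FDG-decreased ileum, and the lowest of these lay within the sham range of 1.04 to 1.48.

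RT1-DMa and RT1-DMb, the peptide exchange pair, could not be followed. RT1-DMa was listed at 0 in every library but FDG-decreased replicate 2 (0.103 FPKM), and RT1-DMb in every library but FDG-decreased replicate 1 (0.0944 FPKM). Both failed the filter of 1 FPKM on average, so 6 of 8 members were tested. Other genes of the same stretch were listed near 0 as well. Tap2, a subunit of the class I peptide transporter, was at 0 to 0.112 FPKM. Brd2, a widely used chromatin reader, was at 0 to 0.0321 FPKM in the RYGB table. Brd2 was picked out after its values were seen. Tap1, the partner of Tap2 and its near neighbour, stood at 8.33 to 51.4 FPKM, and Psmb8 and Psmb9, immunoproteasome subunits on either side of Tap1, at 48.8 FPKM or more. The listing at 0 therefore does not take in the whole stretch, though RT1-DMb, RT1-DMa and Brd2 follow each other among the measured genes. It is given as a listing and not as a level. RT1-DOa and RT1-DOb, which form the RT1-DO inhibitor of RT1-DM, were measured. RT1-DOa stood at 10.6, 3.23 and 2.43 FPKM in FDG-decreased ileum, against 6.89, 5.20 and 1.43 FPKM in FDG-increased ileum. Its highest library, FDG-decreased replicate 1, also had the highest summed B cell markers, 47.7 FPKM, against 1.98 to 17.2 FPKM elsewhere. RT1-DOa differed by 0.69 (SE 0.267; limma adjusted p 0.606) between FDG-increased and sham ileum, and RT1-DOb by 0.51 (SE 0.307; limma adjusted p 0.733).

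**Figure D5:**
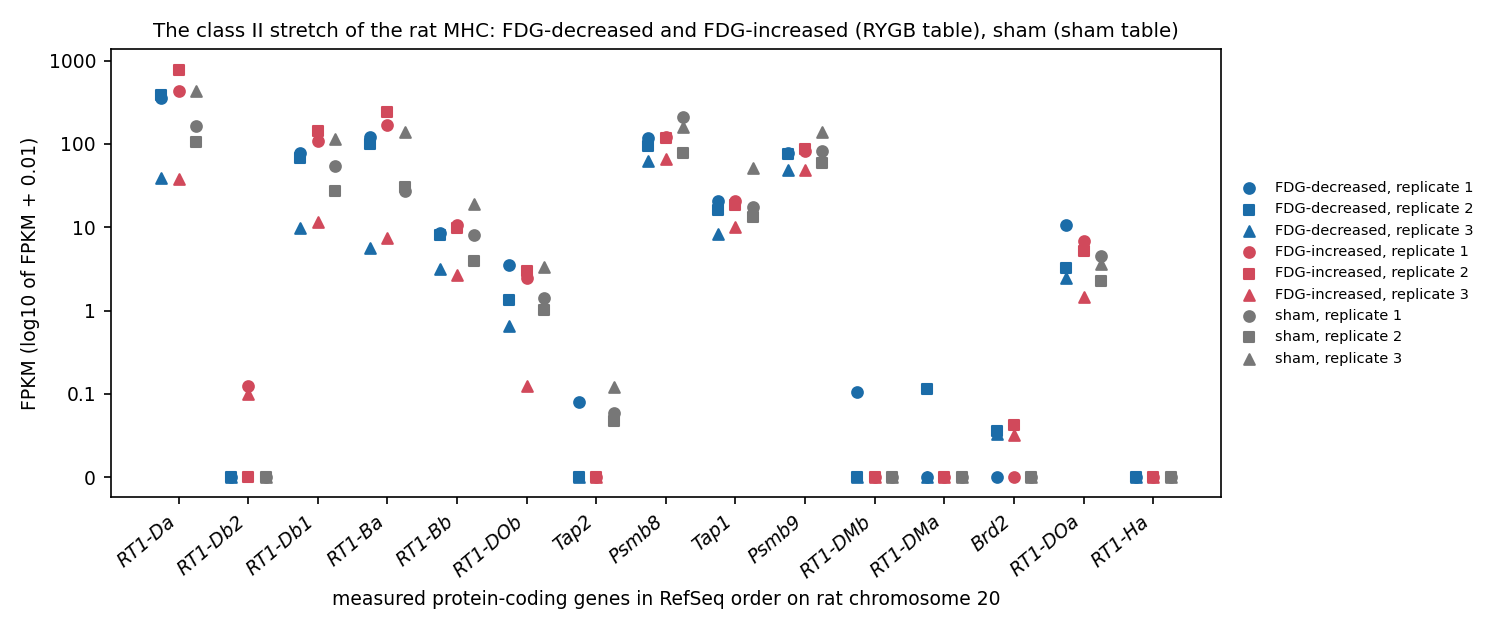
FPKM, plotted as log10 of FPKM + 0.01, of measured protein-coding genes in RefSeq order along the class II stretch of rat chromosome 20, by library. RT1-DMb, RT1-DMa, Tap2, RT1-Db2, Brd2 and RT1-Ha lie at or near 0 beside genes such as Psmb8 and Psmb9 that every library expressed.

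No regulator above Ciita was called against sham. Ifng, the inducer, was listed at 0 or at most 0.501 FPKM. In FDG-increased against sham ileum 0 genes of any companion list were called by limma, and at an unadjusted p of 0.05 1 of 11 interferon gamma input genes and 0 of 11 promoter factors were higher, against 6.15% of all genes. Whatever the p, of the 11 input genes 8 were higher, with a median log2 difference of 0.22. Of the 11 class II promoter factors 6 were higher, with a median of 0.26. Of all genes 64.7% were higher, with a median of 0.13. Spi1, a myeloid transcription factor, had the largest difference of the input genes at 1.01 (SE 0.365; limma adjusted p 0.577), and Irf1, a direct activator of Ciita, the lowest at -0.36. Rfx5, the RFX subunit that binds the X box with its partners, stood at 5.90, 6.94 and 9.09 FPKM in FDG-increased libraries D, A and B, against 9.77, 9.79 and 10.4 FPKM in sham ileum. Sham replicate 3, the library highest in Ciita, was the highest sham library for 3 of 11 input genes, Irf1 (92.3 FPKM) and Irf8 (72.7 FPKM) among them, a share near the 26% of all genes. In FDG-decreased against FDG-increased ileum 5 of 11 input genes and 6 of 11 promoter factors were higher, with medians of -0.00 and 0.02. Of all genes 55.2% were higher there.

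Genes around Ciita and the endosome gave the only calls among the companion lists beside gut position. With the replicate block, FDG-decreased ileum was called lower than FDG-increased ileum in Socs1, an inhibitor of interferon receptor signalling, at -1.43 (SE 0.222; limma adjusted p 0.0141). The same fit called Prdm1, a repressor of Ciita in plasma cells, at -0.96 (SE 0.180; limma adjusted p 0.0332) and Napsa, an aspartic protease, at -1.10 (SE 0.175; limma adjusted p 0.0141). Without the block each had a limma adjusted p of 1.00. Socs1 stood at 1.53, 0.772 and 1.71 FPKM in FDG-decreased ileum, against 6.54, 5.76 and 3.65 FPKM in FDG-increased ileum, with no overlap. Napsa stood at 10.9, 19.3 and 0.884 FPKM in FDG-decreased ileum, against 33.4, 33.8 and 2.78 FPKM in FDG-increased ileum, and was lower in every pair. Of 7 measured genes of Ciita inhibition and class II turnover 3 were lower in FDG-decreased ileum (median 0.09). Of 16 endosomal processing genes 10 were (median -0.05), as were 4811 of all 10739 genes. Ctss, the protease that trims Cd74, stood at 168, 284 and 95.4 FPKM in FDG-decreased ileum, against 190.5, 367 and 118 FPKM in FDG-increased ileum, lower in every pair. In FDG-increased against sham ileum 15 of 16 endosomal genes were higher with a median of 0.44, led by Napsa at 2.72 (SE 0.517; limma adjusted p 0.185). There 6 of 7 inhibition and turnover genes were higher with a median of 0.20, and 64.7% of all genes were higher.

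Class I presentation, the parallel route for cytosolic peptides, differed less from sham than the class II members. Its 18 measured genes had a median of 0.17 in FDG-increased against sham ileum, 15 of them higher, with B2m, the class I light chain, at 1.03 (SE 0.492; limma adjusted p 0.667) and Tap1 at -0.11. In FDG-decreased against FDG-increased ileum their median was -0.04, with 8 of 18 higher, against 55.2% of all genes. The 4 measured costimulation genes were all higher in FDG-increased than in sham ileum, with a median of 0.62 and Cd86 at 1.35 (SE 0.510; limma adjusted p 0.605). Of the 3 other measured class II chain genes 3 were higher (median 0.51). Against sham 64.7% of all genes were higher, the share to set beside the counts of these lists.

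Markers of several cell types that carry or read class II were also higher in FDG-increased than in sham ileum, though 0 were called. Of all genes 64.7% were higher, with a median of 0.13. Macrophage markers were higher in 10 of 13 genes with a median of 0.97, and 7 of 13, Csf1r, Cd68 and C1qa among them, had no overlap with sham (10.7% of all genes). At an unadjusted p of 0.05 limma placed 7 of 13 macrophage markers and 5 of 12 T cell genes higher, against 6.15% of all genes. It also placed 4 of 5 B cell markers and 2 of 10 dendritic cell markers higher. The summed level of the macrophage markers was 5349, 3372 and 8026 FPKM in libraries D, A and B, against 2002, 3764 and 2649 FPKM in sham ileum. Most of that sum was the lysozyme gene Lyz2. It stood at 4794, 2992 and 7562 FPKM in libraries D, A and B, against 1690, 3619 and 2375 FPKM in sham ileum. The sum therefore follows Lyz2 and is not a level of the list as a whole. Sham replicate 2 was the highest sham library in Lyz2 and the lowest in Csf1r. Csf1r stood at 28.5, 23.4 and 32.1 FPKM in libraries D, A and B, against 13.1, 7.34 and 12.5 FPKM in sham ileum. T cell genes, many of them not confined to CD4 T cells, were higher in 11 of 12 with a median of 0.71. They summed to 68.9, 73.2 and 101.2 FPKM in libraries D, A and B, against 55.2, 37.7 and 62.7 FPKM in sham ileum. B cell markers were higher in 5 of 5 measured genes (median 0.79) and dendritic cell markers in 7 of 10 (median 0.04). The dendritic cell count is near the share of all genes. Epithelial markers were higher in 10 of 11 (median 0.32) and plasma cell markers in 3 of 7 (median -0.05). Without sham replicate 1 the medians were 0.73 for macrophage, 0.65 for T cell, 0.77 for B cell and 0.06 for dendritic cell markers. They were 0.55 for epithelial and 0.28 for plasma cell markers, with 6 of 7 plasma cell markers higher, against 63.7% of all genes. Limma then placed 7 of 13 macrophage and 3 of 12 T cell genes higher at an unadjusted p of 0.05. It placed 3 of 5 B cell and 0 of 10 dendritic cell markers higher, against 7.43% of all genes. None of the 13 of 14 macrophage and 10 of 14 dendritic cell markers matched by symbol was at 0 in any library. Cd74 per Csf1r was 44.1, 80.6 and 68.5 in libraries D, A and B, against 45.3, 54.9 and 156.5 in sham ileum, so sham replicate 3 held the most Cd74 for its macrophage gene. Ileal position markers had a median of 1.70 and upper intestine markers one of -3.04 in this comparison, in which sham replicate 1 had the Fabp6 and Lct levels given above. The part of these markers in the class II levels was not tested.

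In FDG-decreased against FDG-increased ileum no marker list was tested against the members, and the lists' medians are given as values. Of all genes 55.2% were higher in FDG-decreased ileum. The median difference was -0.26 for macrophage markers (3 of 13 higher), of which 5 of 13 were lower in all 3 pairs, as were 12.7% of all genes. Without pair 3 it was -0.49, with 12 of 13 lower, as were 5379 of 10739 genes. The median was -0.04 for T cell genes (4 of 11 higher) and -0.01 for dendritic cell markers (5 of 10 higher). B cell markers had 0.42, with 6 of 7 higher and FDG-decreased replicate 1 well above the rest. Epithelial markers had -0.01, plasma cell markers 0.19, costimulation genes -0.19 and the other class II chains 0.17. Upper intestine markers were higher in FDG-decreased ileum in 5 of 5, with a median of 1.795, the value of Lct. Lct (limma adjusted p 0.0190) and Gip, an incretin hormone, at 2.10 (limma adjusted p 0.000318) were called with the block. Among ileal position markers, with a median of -0.34, Cubn, the vitamin B12 receptor, was called at 2.03 (limma adjusted p 0.00555).

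Likeness to the class II mean was sought among all genes outside the members. It was the Pearson r of log2(FPKM + 1) with the mean of the 6 measurable members over the 6 columns of a table, averaged over both tables, among 10652 genes. The order was Prkch (0.988), Itgae (0.978), Cd3e (0.977), Ptpre (0.974) and Ccl5 (0.973), and the tables share a pair of libraries. Itgae, the integrin of intraepithelial T cells and of some dendritic cells, stood at 7.77, 7.99 and 1.52 FPKM in FDG-decreased ileum, against 7.95, 7.74 and 1.99 FPKM in FDG-increased ileum. Ccl5, a T cell chemokine, stood at 33.8, 33.3 and 54.5 FPKM in libraries D, A and B, against 19.8, 8.32 and 43.8 FPKM in sham ileum. Itgae was lowest in the third replicates of both RYGB groups, and Ccl5 was highest of the sham libraries in the third, as the class II genes were. Both were picked for likeness over these same columns, so the shared order follows from the choice. Among the members themselves, each of which is part of that mean, Cd74 followed it most closely (0.995) and Ciita least (0.745, with 0.961 in the RYGB table and 0.530 in the sham table).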

How the data were processed

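Total RNA of rat ileum was sequenced, per the labels' protocols, with a stranded kit that removes ribosomal RNA. The submitters' processing notes list bcl2fastq 1.8.4, STAR 2.6.0a, Cufflinks 2.2.1, Cuffdiff and DESeq2 1.24.0 and the human build hg19, although the symbols are those of rat; the sources used here do not give their settings. The authors deposited FPKM per gene, fragments scaled to transcript length and library, in 2 tables of 17145 rows scaled separately. Read depth is unknown, since low values showed no common step of whole reads. Left out were 25 symbols turned into dates, and 0 sample columns.

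Values were taken as log2(FPKM + 1), which understates changes of low genes, for genes that averaged 1 FPKM or more over the 6 columns of a table (10801 in the sham table, 10739 in the RYGB table). Each table was fitted alone with limma 3.58.1 (R 4.3.3, trend and robust), Benjamini-Hochberg adjustment over all genes and a threshold of 0.05. The code was tested on simulated data. Groups and replicates come from sample titles. Python 3.11.15 was used for the rest.

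Libraries of the same number shared deviations from their group means across genes in the RYGB table (r 0.845, 0.763 and 0.768). What the number stands for is not stated. The RYGB table was therefore also fitted with the replicate number as a block.

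Members, 16 companion lists (184 symbols, 166 found), named genes and tests were chosen with earlier results of these data known. Named were the members, a fixed set of list genes, each list's highest and lowest gene in FDG-increased against sham ileum, any list gene called and the 5 genes most like the members. Alternatives were another pseudocount, no filter, limma without trend, same-median and quantile scaling, the block, lane 7 alone and leaving out each replicate.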

Additional observations from a re-analysis of the deposited data

How the results depend on the processing

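Against sham, 4 genes and 0 members were called. The gene count was 1 with a pseudocount of 0.1, 0 with no filter on low values, 1 with libraries shifted to the same median, 0 with quantile normalization, 39 with the replicate block and 0 with lane 7 libraries alone, where FDG-increased ileum is 1 library assumed to vary like the sham libraries. Leaving out each replicate in turn gave 0 to 13 genes and 0 members. Members called were 0 in each, which for lane 7 says little with 1 library in a group. Shifting the libraries to the same median took the members' median from 1.17 to 1.04, and quantile normalization to 0.71. It was 0.68 to 1.76 over the fits that left out a replicate. Ciita ran from -0.84 to 0.16, its sign turning without sham replicate 3. In the sham table same-numbered libraries did not deviate together (r 0.35, -0.498 and -0.246), so the numbers do not pair them, and the block there changed no member's call.

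Between FDG-decreased and FDG-increased ileum the gene count was 0, and it was 122 with the replicate block and 0 to 1 over the fits that left out a replicate. The block changed no member's call. Without both libraries of pair 3 the blocked fit called 345 genes and 3 members, and the unblocked fit 0. Leaving out 1 library unbalances the pairs: the signs of all 6 members turned without FDG-decreased replicate 3 and also when FDG-increased replicate 2 was left out, and those of RT1-Bb, RT1-Da, Cd74 and Ciita turned when FDG-increased replicate 1 was. Log2 differences over these fits ran from -2.23 to 0.66 for RT1-Ba, -0.68 to 0.26 for RT1-Bb, -1.71 to 0.66 for RT1-Da, -1.70 to 0.34 for RT1-Db1, -1.75 to 0.74 for Cd74 and -0.74 to 0.54 for Ciita. Lane 7 alone could not be fitted there, with 1 library a group. The cause of the changed counts and signs was not tested. Depth is unknown, so no limit from counting error can be given.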
